A study of Mus musculus with 4 samples.

Results

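The lens transcription factors *Foxe3*, *Pitx3*, *Hsf4*, *Maf* and *Sox1* were examined in RNA-seq read counts of E13.5 mouse retinas. These 5 genes were chosen as regulators of lens epithelium and lens fibers, and each has 1 row among the 24062 genes of the count table. The samples were 2 wildtype and 2 mutant libraries of the genotype Nrf1 f/f;Six3-Cre (labelled Nrf1-CKO), all from E13.5 embryos of C57BL/6 129 mixed strain. *Nrf1* encodes a transcription factor that drives nuclear genes for mitochondrial function. In the mutant, exon 4 of *Nrf1* is flanked by loxP sites and is removed by Cre from the Six3-Cre transgene, which becomes active in progenitor cells of the central retina. The paper's methods describe pools of retinas from several littermates, so a library is not 1 animal, and the sources used here do not describe how the lens was taken off.

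The lens forms from surface ectoderm next to the retina. Its anterior cells remain a dividing epithelium, while cells at its equator leave the cell cycle, elongate into fibers and fill with crystallins, the soluble proteins that refract light. Foxe3, a forkhead factor, and Pitx3, a homeodomain factor, act in the epithelium and early lens, and mice that lack either one have small or missing lenses. Maf, a basic leucine zipper factor, and Sox1, an HMG-box factor of the SoxB1 group, act in differentiating fibers and activate crystallin genes. Hsf4, a heat shock factor, is the member of its family known for lens, and its mutations cause cataract. Some of them also work elsewhere: *Pitx3* in midbrain dopamine neurons, *Maf* in macrophages and other cells, and *Sox1* in the neural tube.

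All 5 genes had more reads in the mutant retinas. The difference ran from about 3-fold for *Sox1* to about 62-fold for *Hsf4*, which was nearly absent from wildtype libraries. Ordered by fold change among the 15762 genes tested, *Hsf4* came at rank 17, *Foxe3* at 89, *Pitx3* at 203, *Maf* at 379 and *Sox1* at 663. Each was called higher by edgeR's quasi-likelihood test, that is, it changed at least 1.4-fold with a Benjamini-Hochberg adjusted p of at most 0.2 over all genes tested. Over all genes tested, 12.8% were called higher by this rule. The 2 mutant libraries exceeded both wildtype libraries for all 5 members, as they did for 30.9% of genes tested. *Hsf4* entered the test only through its mutant libraries, and the other 4 had enough reads in both genotypes. The reads come from whole tissue, so more lens cells, more RNA per lens cell and reads from other cells cannot be told apart.

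The libraries held between 74577660 and 85933945 reads on genes. *Nrf1* itself had 9052 and 7789 reads in wildtype and 8594 and 8284 in mutant libraries, which does not check the genotype because the deletion takes out 1 exon only. The tissue carried its retinal markers, since each of 9 progenitor genes, among them *Rax* and *Six6*, was detected in every library, with a summed level between 5532 and 7950 CPM (read counts normalized for library size with TMM factors). It also carried lens markers in every library. The 16 crystallin genes summed to 206 and 516 CPM in wildtype and to 11180 and 4417 CPM in mutant libraries, so the libraries of one genotype differed among themselves as well.

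To show what lies in front of the members, the promoters of *Foxe3* and *Pitx3* are printed from RefSeq's GRCm38.p6 table, which matched 3 of the 5 symbols. That of *Sox1* is not shown, because RefSeq starts the gene further downstream than GENCODE and most of the window lies inside the gene as GENCODE gives it. Each sequence is the 250 bases before the RefSeq start, 5′ to 3′ on the strand of the gene. Capitals mark a TATA box core (TATAA) or a GC box (GGGCGG), on either strand. These 2 motifs were added after the sequences had been seen. That of *Foxe3* is chr4:114926068-114926317 and that of *Pitx3* is chr19:46148326-46148575, both on the minus strand.

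Foxe3: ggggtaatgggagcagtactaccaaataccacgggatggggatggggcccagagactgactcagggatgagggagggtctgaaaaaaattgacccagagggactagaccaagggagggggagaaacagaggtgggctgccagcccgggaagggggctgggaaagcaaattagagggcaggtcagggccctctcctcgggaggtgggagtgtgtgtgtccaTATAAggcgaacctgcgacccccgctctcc

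Pitx3: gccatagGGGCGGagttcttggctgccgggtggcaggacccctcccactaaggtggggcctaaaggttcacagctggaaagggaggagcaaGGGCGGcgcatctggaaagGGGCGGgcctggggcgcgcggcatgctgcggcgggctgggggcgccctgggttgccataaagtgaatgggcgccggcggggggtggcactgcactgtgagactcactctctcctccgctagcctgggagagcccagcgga

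The promoters differed in the motifs that had been added after the sequences were seen. That of *Foxe3* held 1 TATA box core, 30 bases before the RefSeq start, and no GC box. That of *Pitx3* held 3 GC boxes and no TATA box core. Among 32851 windows of the same length, 22.8% held a TATA box core and 32.7% a GC box. The G and C content was 60.0% for *Foxe3* and 68.8% for *Pitx3*, against a median of 52.4% over all windows. Neither window held the NRF1 core GCGCATGC (in 2.26% of windows), the heat shock element GAANNTTC (6.69%) or the bicoid-type homeobox site TAATCC (6.25%). Neither held the SOX site ACAAT (27.7%), the MAF site TGCTGA (16.1%) or the forkhead site GTAAACA (3.17%), again read on both strands.

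*Foxe3*, the epithelial forkhead gene, is a single-exon gene on chromosome 4 of GRCm38 from 114925147 to 114926013. Wildtype replicate 1 had 22 reads and replicate 2 had 59, and mutant replicate 1 had 678 reads and replicate 2 had 482. Both mutant libraries were far above both wildtype libraries, and the wildtype pair differed more than the mutant pair. Its level went from 0.523 ± 0.385 to 6.99 ± 1.65 CPM (SD, n = 2). The log2 fold change was 3.76 ± 0.44 (SE), with an edgeR adjusted p of 0.000505. It rested on the wildtype libraries, being 3.14 without wildtype replicate 1 and 4.79 without wildtype replicate 2.

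*Pitx3*, a homeodomain gene that acts upstream of *Foxe3* in the early lens, lies on chromosome 19 from 46135685 to 46148326. Its reads numbered 116 and 202 in wildtype and 1115 and 1057 in mutant libraries. The mutant libraries were almost alike here, while wildtype replicate 2 was again above wildtype replicate 1. The levels were 2.02 ± 0.989 and 13.1 ± 0.457 CPM (SD, n = 2), and their log2 fold change was 2.7 ± 0.29 (SE; edgeR adjusted p = 0.000316). Without wildtype replicate 2 the log2 fold change was 3.31. The end of the gene overlaps *Elovl3* on the opposite strand, which had 9 reads in mutant replicate 2 and none elsewhere.

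*Maf*, the basic leucine zipper gene of fibers, lies on chromosome 8 from 115682942 to 115707794. Wildtype libraries had 1206 and 1304 reads and mutant libraries 6878 and 3819. The wildtype pair was close, and mutant replicate 1 stood well above mutant replicate 2. *Maf* rose from 15.7 ± 2.69 to 64.5 ± 25.9 CPM (SD, n = 2). In log2 units this was 2.04 ± 0.24 (SE), at an edgeR adjusted p of 0.00053. It overlaps the antisense gene *Gm15655*, and whether reads were counted by strand is not given in the sources used here.

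*Sox1*, the other fiber factor that acts on crystallin genes, is a single-exon gene on chromosome 8 from 12395295 to 12400126. It had 528 and 527 reads in wildtype and 2080 and 1185 in mutant libraries. As for *Maf*, the mutant pair was further apart than the wildtype pair, yet the genotypes did not overlap. Its level was 6.57 ± 0.761 CPM in wildtype and 19.7 ± 7.58 CPM in mutant retinas (SD, n = 2). The rise of 1.58 ± 0.24 in log2 fold change (SE; edgeR adjusted p = 0.00175) was the smallest of the 5. *Sox1* lies inside *Sox1ot*, a longer gene on the same strand that has no row in the table analysed here.

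*Hsf4*, the heat shock factor gene of the lens, lies on chromosome 8 from 105269801 to 105275845. Only 4 and 5 reads fell on it in wildtype libraries, against 380 and 205 in mutant libraries. Its levels were 0.0565 ± 0.0154 and 3.53 ± 1.48 CPM (SD, n = 2). The log2 fold change, 5.94 ± 0.52 (SE; edgeR adjusted p = 0.000162), was the largest of the 5. The deposited log2 values have a raised floor, with 8.29 for the 4 reads of *Hsf4* and 8.52 for the 22 reads of *Foxe3* in wildtype replicate 1. Differences between genotypes in genes with few reads are compressed there, to 1.21 for *Hsf4* and 1.37 for *Foxe3*, against 1.65 for *Maf*, so the members cannot be ordered on that scale. The 9 wildtype reads bound its fold only loosely. The ratio of the pooled reads was 63.4 with a 95% interval from 33.2 to 139 (exact binomial). Such intervals cover counting error only, and reads of the same PCR product are not independent molecules.

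Levels were set beside each other per length, as RPKM over the exon bases of each gene in the GENCODE annotation. In wildtype libraries *Maf* had 1.67 and 2.13 RPKM, *Sox1* 1.25 and 1.47, *Pitx3* 0.868 and 1.79, *Foxe3* 0.29 and 0.918, and *Hsf4* 0.0261 and 0.0384. *Pitx3* overlapped *Maf*, *Sox1* and *Foxe3*, so its place was unclear, while *Hsf4*, *Foxe3*, *Sox1* and *Maf* followed each other upwards without overlap. In mutant libraries *Foxe3* had 9.41 and 6.72 RPKM, *Pitx3* 8.80 and 8.37, *Maf* 10.1 and 5.60, *Sox1* 5.18 and 2.96, and *Hsf4* 2.61 and 1.41. *Foxe3*, *Pitx3* and *Maf* were then at one level within their spread, *Sox1* was lower, and *Hsf4* was again lowest. The exons used for counting are not given in the sources used here, and lengths of *Foxe3* and *Maf* differ between annotations, so the order other than that of *Hsf4* is uncertain.

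**Figure D1:**
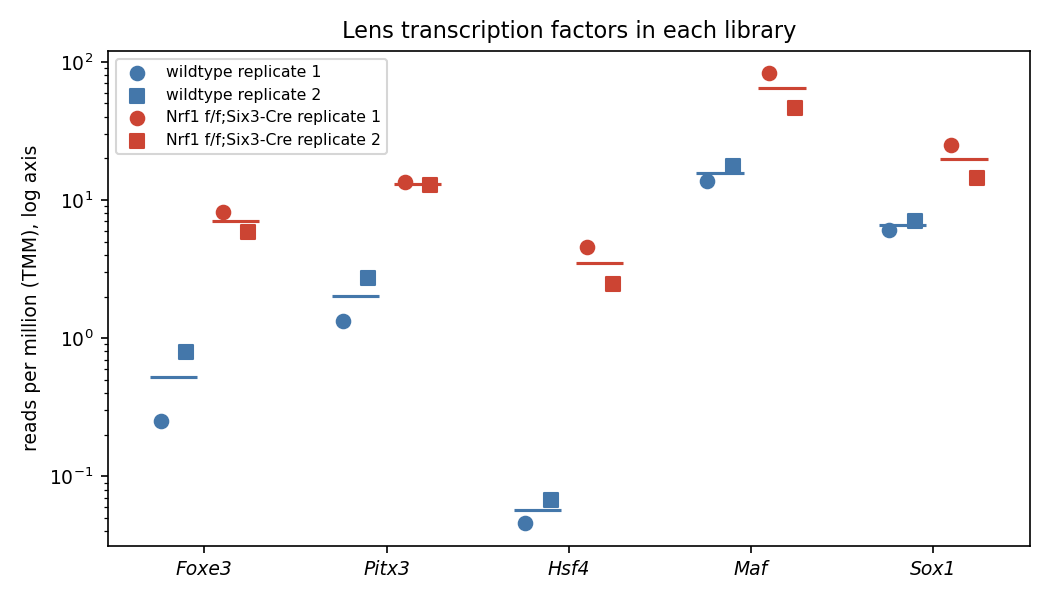
Normalized read counts (CPM) of the 5 lens transcription factors in each library, on a log axis; circles and squares are replicates 1 and 2 and lines are genotype means (n = 2). Every mutant point lies above both wildtype points of its gene, with means of 6.99 against 0.523 for *Foxe3* and 19.7 against 6.57 for *Sox1*.

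The mutant libraries were next compared with each other, gene by gene, since lens reads differed between them. The ratio of CPM in mutant replicate 1 to replicate 2 had a median of 1.01 over all genes tested, and 95% of genes lay between 0.579 and 2.40. For *Pitx3* it was 1.05 (95% exact binomial interval 0.965 to 1.14), so no difference between the mutant libraries was detectable. For *Foxe3* it was 1.4 (1.25 to 1.58). The 3 remaining members had similar ratios of 1.75 for *Sox1* (1.63 to 1.88), 1.79 for *Maf* (1.72 to 1.87) and 1.85 for *Hsf4* (1.55 to 2.20). All 5 ratios lay within the range that held 95% of genes.

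Structural genes of the lens differed more. The 16 crystallin genes summed had a ratio of 2.53 and the 12 fiber genes 2.45, with counting intervals of 2.52 to 2.54 and 2.42 to 2.47, above the interval of every member. The median over single crystallin genes was 2.63, from 1.39 for *Cryab* to 3.66 for *Crygf*, a gamma-crystallin. The ratio of *Pitx3* was below that of all 26 crystallin and fiber genes tested, and that of *Foxe3* was below 25 of them. Each of *Sox1*, *Maf* and *Hsf4* had a ratio above 4 of the 26.

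In the wildtype pair the order turned, with replicate 2 above replicate 1. The ratios of replicate 1 to replicate 2 were 0.316 for *Foxe3* (95% exact binomial interval 0.184 to 0.523) and 0.486 for *Pitx3* (0.384 to 0.614). Those of *Maf* and *Sox1* were closer to 1, at 0.783 (0.724 to 0.848) and 0.849 (0.751 to 0.959). *Hsf4* had too few reads to tell, at 0.678 (0.135 to 3.15). Crystallin genes summed had a ratio of 0.399 and fiber genes 0.288. Leaving *Hsf4* aside, *Foxe3* and *Pitx3* thus lay nearer to the lens structural genes than *Maf* and *Sox1* in wildtype retinas, and further from them in the mutant. Whether libraries with equal replicate numbers belong together is not given in the sources used here, so the 2 ratios were kept separate.

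**Figure D2:**
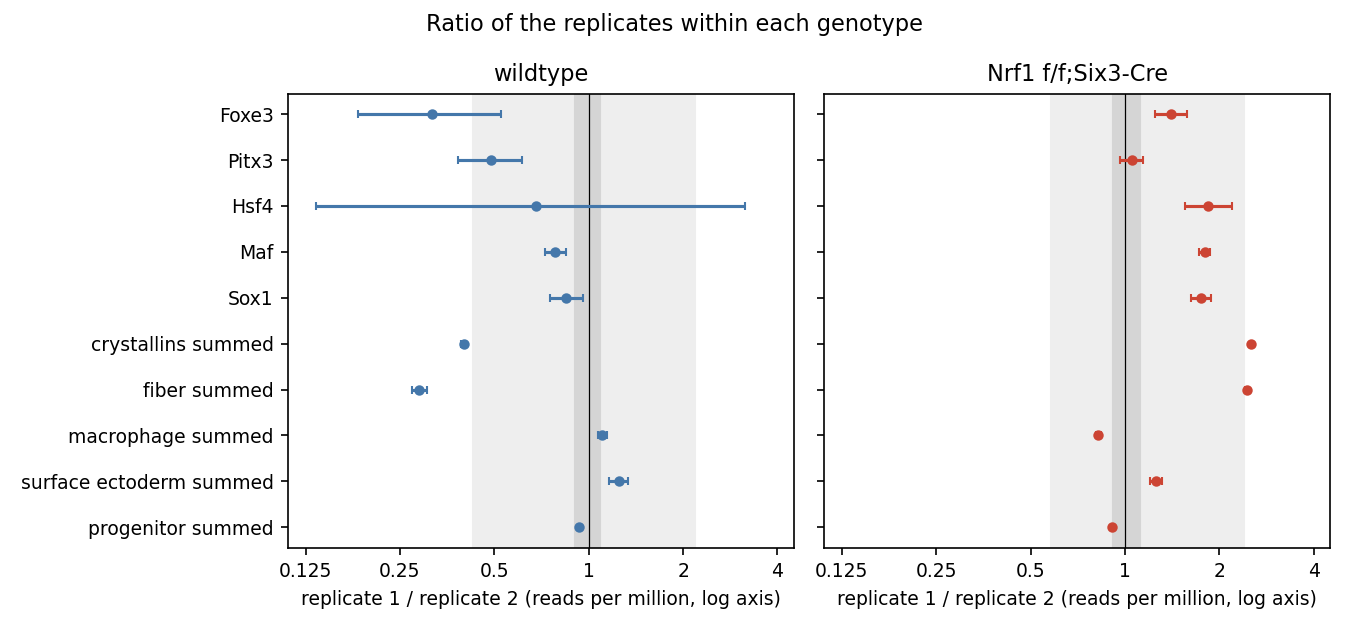
Ratio of replicate 1 to replicate 2 in CPM, on a log axis, for the 5 members and for summed marker lists, with 95% counting intervals; dark and light bands hold the middle 50% and 95% of all genes tested. In the mutant, *Pitx3* at 1.05 and *Foxe3* at 1.4 lie left of *Sox1*, *Maf* and *Hsf4*, and all 5 lie left of the crystallins at 2.53.

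The members were then set against the lens reads of their own library. Crystallin and fiber genes together had 19830 and 43527 reads in wildtype and 1035321 and 408830 in mutant libraries, so a gene that rose less than these sums is lower by this measure by construction. *Foxe3* had 11.1 and 13.6 reads per 10000 crystallin and fiber reads in wildtype libraries and 6.55 and 11.8 in mutant libraries. These values overlap between the genotypes. With the reads of each genotype pooled, the ratio of mutant to wildtype was 0.628 (95% exact binomial interval 0.501 to 0.797), which covers counting error only and not the spread between libraries. *Pitx3* had 58.5 and 46.4 in wildtype and 10.8 and 25.9 in mutant libraries, lower in both mutants. *Maf* and *Sox1* are also expressed outside the lens, so their reads need not come from it. *Maf* had 608 and 300 reads per 10000 in wildtype and 66.4 and 93.4 in mutant libraries, and *Sox1* had 266 and 121 against 20.1 and 29.0. For both genes the mutant values lay below the wildtype values, and the wildtype libraries were far apart. *Hsf4* went the other way, from 2.02 and 1.15 to 3.67 and 5.01. With its few wildtype reads pooled, that rise was 2.85-fold (95% exact binomial interval 1.49 to 6.27). The differences in reads per lens read between genotypes were not tested.

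**Figure D3:**
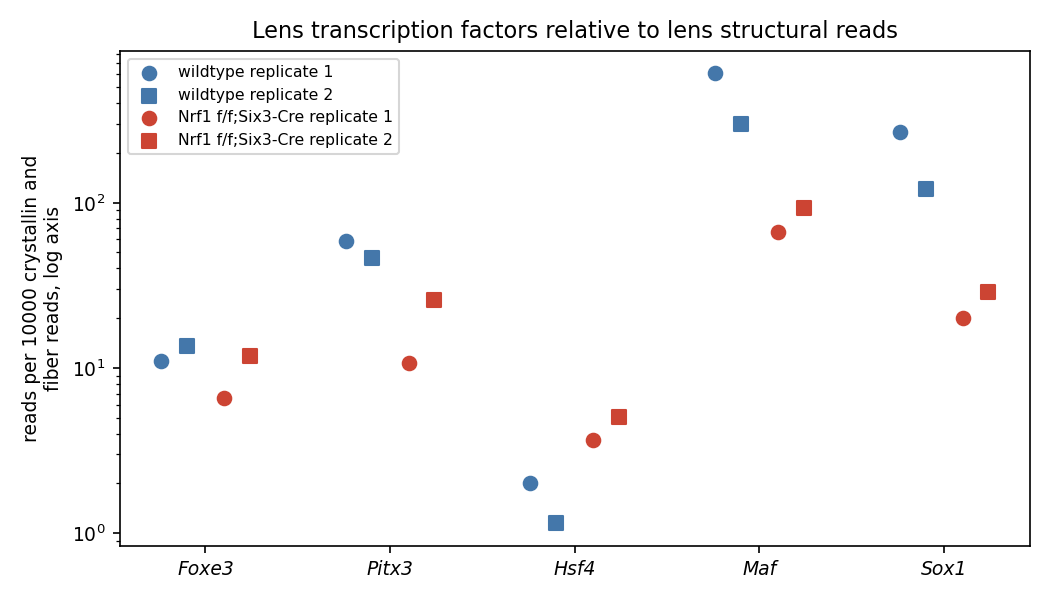
Reads of each lens transcription factor per 10000 reads of the crystallin and fiber genes of the same library, on a log axis, with circles and squares for replicates 1 and 2. Mutant values lie below wildtype values for *Pitx3*, *Maf* and *Sox1*, overlap them for *Foxe3*, and lie above them for *Hsf4*.

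Crystallin genes, which Maf and Sox1 are known to activate, rose as well. Whether the members caused this rise was not tested. All 16 crystallin genes were called higher in the mutant. The median of their log2 fold changes was 4.49, or 4.45 with the 1 gene at 3 or fewer reads in both wildtype libraries placed at its lower bound. The median over all genes tested was 0.00073. *Cryaa*, the major alpha-crystallin and a target of Maf, had 6746 and 14696 reads in wildtype and 333178 and 140420 in mutant libraries, or 4.38 ± 0.51 as log2 fold change (SE). *Crygs*, a gamma-crystallin of fibers, rose most, from 7 and 2 to 558 and 266 reads, or 6.45 ± 0.57 (SE) as log2 fold change, the only one in the list above that of *Hsf4*. Close copies among the gamma-crystallin genes make their single counts uncertain.

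Of the 12 fiber genes, 10 were tested and 9 were called higher. The median over the 10 was 4.31 on the log2 scale. *Mip*, the lens water channel, rose from 189 and 651 reads in wildtype to 22511 and 6215 in mutant libraries. *Bfsp1*, which encodes the beaded filament protein filensin, rose less, by 2.61 ± 0.39 (log2, SE), a value between those of *Maf* and *Pitx3*. *Dnase2b*, the nuclease that degrades fiber cell DNA late in differentiation, had no read in any library, which allows up to 3 reads per library. *Birc7* was not called, with 20 and 1 reads in wildtype and 33 and 21 in mutant libraries.

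Further transcription factors of lens development, most of them shared with the retina, gave values from near 0 to about that of *Pitx3*. Of 12 such genes 4 were called higher and none lower, and their median was 0.20 on the log2 scale. *Gata3*, a zinc finger gene of lens fibers, had 19 and 13 reads in wildtype and 153 and 103 in mutant libraries (log2 fold change 2.96, standard error 0.48). *Prox1*, which drives fiber elongation but is also used in retinal neurons, rose from 2860 and 2765 to 5694 and 3912 reads (0.73, standard error 0.16). *Tfap2a* and *Mafk* were the other two called, at 1.42 and 0.65 (standard errors 0.52 and 0.14). The value of *Gata3* was above those of *Pitx3*, *Maf* and *Sox1*. *Pax6*, a master gene of eye development, stood at 0.02 ± 0.08 (log2 fold change, SE), and the values of *Sox2* and *Six3* were -0.12 and -0.07 (standard errors 0.09 and 0.15), so none of these 3 passed the test.

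Close relatives of the members were compared next. Of 15 family members, 13 were tested, 5 were called higher and none lower, and the median was 0.23 on the log2 scale. In the SoxB1 group, *Sox3* had 1220 and 1385 reads in wildtype and 1441 and 1385 in mutant libraries (log2 fold change 0.07, standard error 0.15), and like *Sox2* it was not called, unlike *Sox1*. In the heat shock factor family, *Hsf1* and *Hsf2* had log2 fold changes of 0.23 and -0.19 (standard errors 0.08 and 0.07), each under 1.4-fold. Among large Maf genes, *Mafa* had 8 and 31 reads in wildtype and 105 and 44 in mutant libraries and was called at 1.83 (standard error 0.76). *Pitx1*, a relative of *Pitx3*, had 14 and 19 reads in wildtype and 62 and 36 in mutant libraries and was called at 1.51 (standard error 0.64). Their edgeR adjusted p, 0.123 for *Mafa* and 0.133 for *Pitx1*, were larger than that of any member.

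Heat shock protein genes, which heat shock factors bind, gave mixed values. Of 10 genes, 4 were called higher and none lower, and the median log2 fold change was 0.12. *Hspb1*, a small heat shock protein gene, had 28 and 20 reads in wildtype and 107 and 98 in mutant libraries (2.06, standard error 0.46). *Hspa1a*, *Hspa1b* and *Bag3* were called at 1.5, 0.97 and 0.49 (standard errors 0.19, 0.27 and 0.15). The abundant chaperone genes *Hspa8*, *Hsp90aa1*, *Hspd1* and *Hspe1* had values between -0.32 and 0.10 and were not called.

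**Figure D4:**
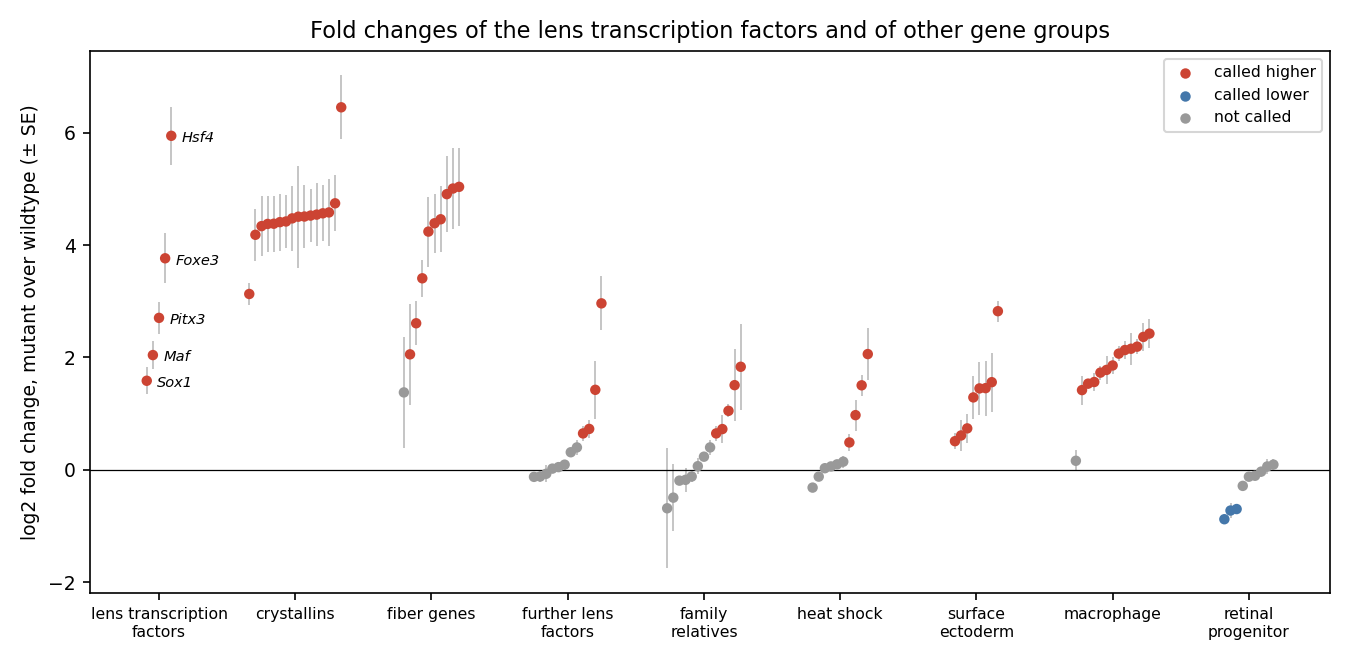
Log2 fold change, mutant over wildtype, of each tested gene (points, with standard errors), by gene group. The 5 members lie between 1.58 and 5.94, the crystallins mostly near 4.5, and most further lens factors, family relatives and retinal progenitor genes close to 0.

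Markers of other tissues around the retina rose beside the members, and their part in the members' result was not tested. Of 13 macrophage genes in the table, 12 were called higher, and their summed level went from 93.3 and 84.4 CPM in wildtype to 273 and 332 CPM in mutant libraries. None of these 13 was at 0, and *Adgre1*, another macrophage gene of the list, was not among the genes counted. The ratio of that sum in mutant replicate 1 to replicate 2 was 0.821. Macrophages also express *Maf*, and the share of its reads that came from them was not tested. All 8 surface ectoderm and cornea genes were called higher, from 22.8 and 18.3 to 60.8 and 48.5 CPM in sum, with a mutant ratio of 1.26 and a wildtype ratio of 1.25. *Cdh1*, the epithelial cadherin of surface ectoderm and lens epithelium, led them, with 375 and 235 reads in wildtype and 2494 and 1891 in mutant libraries (log2 fold change 2.82, standard error 0.19). Retinal progenitor genes went down or stayed within the threshold. Of 9, *Ccnd1*, *Hes5* and *Fgf15* were called lower and none higher, while 8.04% of all genes tested were called lower.

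For each member, the 3 genes with the closest profile were looked up among 13430 genes averaging at least 1 CPM. Closeness was the Euclidean distance between log2 CPM over the 4 libraries, each gene centred on its mean. Profiles were not scaled, so these distances also reflect differences in the size of the fold change. *Maf* lay nearest to *Ell2*, *Pygm* and *Gpr160* (distances 0.21, 0.22 and 0.22) and *Sox1* to *Clu*, *Daam2* and *Gsn* (0.13, 0.17 and 0.18). *Pitx3* lay nearest to *Apobec1*, *C3ar1* and *Asb2* (0.34, 0.45 and 0.47), where *C3ar1* encodes a complement receptor of macrophages and other myeloid cells. *Foxe3* was closest to *Abcc8*, *Grifin* and *Htra3* (0.52, 0.65 and 0.65), where *Grifin* encodes a lens fiber galectin. *Hsf4* stood more alone, with *R3hdml* at 0.62, *Crygn* at 1.00 and *Tmem40* at 1.00. Among the members themselves, *Maf* and *Sox1* had the most similar profiles (0.47) and *Hsf4* and *Sox1* the least similar (3.87).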

How the data were processed

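E13.5 retinas of 2 wildtype and 2 Nrf1 f/f;Six3-Cre pools were sequenced. Per the paper and the labels, the authors aligned reads to mm10 with Tophat 2.7.2, counted them per gene with HTSeq and deposited raw counts. The authors also deposited normalized values on a log2 scale, made by a step not given in the sources used here. The submitters' processing notes name DESeq and limma without saying what they were used for. The release of the gene annotation used for counting is not given there either. HTSeq's 5 summary rows, which hold counts not assigned to a gene, were left out. They made up 74.0% to 75.0% of all counts of a library, so levels rest on the remaining counts.

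Counts of all 24062 genes were filtered with filterByExpr (minimum count 10), scaled with TMM factors and tested between genotypes with edgeR 4.0.16 (quasi-likelihood test, R 4.3.3), with no further terms. Thresholds were the study's own. The step was tested on simulated data. Standard errors follow from the fold change and its F statistic. The paper describes a duplicated experiment, and the sources used here do not say whether the pools shared litters, so p-values measure the spread between these libraries. Replicates differed by more than sampling noise (chi-square per gene 47.6 and 59.1), and depth was similar. Low reads limit the precision of *Hsf4* and *Foxe3* in wildtype libraries.

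Named genes are the members, the genes of fixed lists (crystallins, fiber genes, further lens factors, family relatives, heat shock, progenitor, macrophage, surface ectoderm, pigment epithelium, mesenchyme and endothelium) and the 3 nearest profiles. Members and lists were chosen with earlier results of these data known. Alternatives were DESeq2 1.42.0, other scalings, filters and thresholds, a replicate block, limma 3.58.1 on the deposited log2 values and each library left out. Gene positions come from GENCODE M21 on GRCm38. Values of some listed genes are not reported here.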

Additional observations from a re-analysis of the deposited data

How the results depend on the processing

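All 5 members were called higher with each library left out in turn, under DESeq2, other scalings, both thresholds, the deposited log2 values and no filter. At 10 reads in every library, 4 were called, since *Hsf4* could not enter. The largest adjusted p of any member among these alternatives was 0.0199 (*Sox1*, edgeR without wildtype replicate 1). With each library left out, log2 fold changes lay between 3.14 and 4.79 for *Foxe3*, 2.27 and 3.31 for *Pitx3*, 5.43 and 6.32 for *Hsf4*, 1.56 and 2.40 for *Maf* and 1.13 and 1.93 for *Sox1*. A lone library was then assumed to vary like the other group. Genes called higher numbered 2024 and lower 1268. These became 1188 and 743 with glmTreat, whose test already includes the fold, and 941 and 722 with limma on the deposited log2 values, where the cause was not tested. On those values, whose raised floor compresses genes with few reads, the members' differences were 1.04 to 1.65. The mutant replicate ratios there were 1.21 for *Foxe3*, 1.31 for *Hsf4*, 1.69 for *Maf* and 1.53 for *Sox1*. With the replicate block, values were 3.83, 2.76, 5.91, 1.99 and 1.54 for *Foxe3*, *Pitx3*, *Hsf4*, *Maf* and *Sox1*, and 1970 and 1256 genes were called. Replicate differences of the genotypes had a correlation of -0.0025 over genes. This does not show whether libraries with the same replicate number were prepared together. With fiber genes alone as lens reads, the mutant values of *Foxe3* (63.7 and 111 per 10000) lay just below the wildtype values (123 and 112).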

Other observations

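Markers of further tissues around the retina were also examined. Of 9 pigment epithelium genes, 8 were tested and 7 were called higher, at a median of 1.05 on the log2 scale. Their summed level was 239 and 173 CPM in wildtype and 438 and 462 CPM in mutant libraries. *Rpe65*, a gene of mature pigment epithelium, had 4 reads in wildtype replicate 2 and none elsewhere. Of 10 periocular mesenchyme genes, 6 were called higher and none lower (median 0.74). Of 9 endothelium genes, 7 were called higher (median 1.13) and 1, *Kdr*, lower at -0.55. *Kdr* is also expressed by retinal progenitors. The summed ratios of mutant replicate 1 to replicate 2 were 0.947 for pigment epithelium, 1.17 for mesenchyme and 1.01 for endothelium, beside 1.05 for *Pitx3* and 1.4 for *Foxe3*.

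*Sox14*, a SoxB2 relative of *Sox1*, was too low to be tested, with no read in either wildtype library and 39 and 4 reads in the mutant libraries. *Foxe1*, the closest relative of *Foxe3* in the list, had no read in any library.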
